A study of Mus musculus with 32 samples.

Results

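RNA was compared between tibialis anterior muscle of old mice given BI01 and of old mice given vehicle, both taken at day 7 after a barium chloride injury (BaCl in the labels). The comparison holds 8 of the 32 libraries of the series, 4 per group, and 17121 of the 54532 genes listed had enough counts to be tested. All 8 libraries share the strain (C57BL/6J), the old age class, the tissue, the injury and the day, and differ by label in the agent. The labels give no age in months, dose, schedule or route, and do not say what the vehicle was. In the words of the series BI01 is a senolytic, which means an agent given to clear senescent cells, and its title speaks of p53 and MDM2 binding. The other 24 libraries are of old muscle given BI01 or vehicle at day 35, of old uninjured muscle given vehicle, and of young muscle given vehicle at day 7, at day 35 or uninjured. Since column names show a group but no single sample, the libraries are called BI01 libraries 1 to 4 and vehicle libraries 7 to 10 after the columns. Whether the 4 libraries of a group are 4 animals is not stated, and p-values measure the spread between libraries of a group, which may be technical.

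p53 is a transcription factor that halts the cell cycle or starts cell death after damage. MDM2 is a ubiquitin ligase that binds p53 and sends it for degradation, and the gene for MDM2 is itself switched on by p53. Compounds that keep MDM2 from p53 are known to raise p53 protein, and with it the RNA of genes such as Cdkn1a and Mdm2. Barium chloride kills muscle fibres and spares their stem cells, the satellite cells. In the first week after it, macrophages clear debris and satellite cells divide and fuse into small fibres that carry embryonic and perinatal myosins.

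At day 7, BI01 and vehicle muscle differed in no gene at an adjusted p under 0.05 by edgeR's quasi-likelihood test with Benjamini-Hochberg adjustment (0 of 17121, or 0%, with 0% higher and 0% lower). The smallest adjusted p was 0.37, for the scavenger receptor gene Cd163. At an unadjusted p under 0.05 there were 1126 genes (6.58%), 657 higher (3.84%) and 469 lower (2.74%) with BI01. In 301 genes (1.76%) the 4 BI01 libraries lay beyond the 4 vehicle libraries, 165 above them (0.964%) and 136 below them (0.794%). With labels dealt at random, a gene without ties separates one way or the other with a probability of 0.0286. Over all genes the log2 fold change had a median of 0.01. These values take the spread from all 32 libraries. With the 8 libraries fitted alone, edgeR called 0 genes and put 311 of 16064 at an unadjusted p under 0.05. The smallest adjusted p of that fit was 0.98. On all 32 libraries, DESeq2 called 1 gene, Cd163, and limma voom called 0, with 1306 and 1921 genes at an unadjusted p under 0.05. The p53 targets, the senescence genes and the cell death genes gave 0 calls, and genes of the respiratory chain had the most members at an unadjusted p under 0.05 (11 of 38, each with the higher mean in BI01 muscle).

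The libraries held 17234091 to 21590707 counts with BI01 and 14129350 to 17979203 counts with vehicle. The 95% interval of a fold change takes its spread from the fit to all 32 libraries, not from these 8 alone. At this depth it was ±0.58 (log2) for the median gene and ±0.38 for the median gene with a mean of 10 CPM or more. CPM is counts per 1000000 of the TMM-scaled library and takes no account of gene length, so levels are compared between libraries and never between genes. For 59.1% of all genes, and for 89.6% of those at 10 CPM or more, the interval lay within a 2-fold change in either direction. Vehicle libraries varied more than BI01 libraries, with a median SD over libraries of 0.36 against 0.25 (log2) among the 10553 genes with a mean of 5 CPM or more over the 8 libraries. The vehicle SD was the larger in 68.6% of them. Leaving out 1 library lowered both medians, to 0.28 for vehicle without vehicle library 7 and to 0.20 for BI01 without BI01 library 2. Vehicle library 10 stood apart on the first principal component of the 8 libraries (33.2% of the variance), and vehicle library 7 and BI01 library 2 lay together at one end of the second (27.6%). Vehicle library 10 also had the fewest counts and the fewest genes with a count (17910, against 19062 to 23204). Its Malat1 was the highest (2340 CPM, against 343.5 to 997.5). Without this library edgeR had 493 genes at an unadjusted p under 0.05, against 1126 with it. What sets it apart was not tested. In vehicle libraries 8 and 10, long genes were high relative to short ones (rank correlation of each gene's deviation with gene length of 0.391 and 0.547, as a description over genes), against -0.342 to -0.072 in BI01 libraries. Vehicle library 7 (-0.052) lay above and vehicle library 9 (-0.379) below every BI01 library. All 8 libraries carried fibre genes such as Acta1 (4060 to 17500 CPM) and embryonic Myh3 (841 to 2780 CPM), while Nppa of the heart atrium was at 0 and Alb of liver at 0 to 0.833 CPM. Being whole tissue, these libraries cannot tell fewer cells of a type from less RNA per cell.

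Cdkn1a (ENSMUSG00000023067, chromosome 17, 29090976 to 29100727), which encodes p21, the inhibitor of cyclin-dependent kinases through which p53 stops division, had 262, 242, 119 and 98.3 CPM in BI01 libraries 1 to 4. In vehicle libraries 7 to 10 it had 219.6, 189, 149 and 116 CPM. The groups overlapped: BI01 libraries 1 and 2 were above every vehicle library, and BI01 library 4 was below every one. Its means were 180.4 ± 83.5 CPM in BI01 and 168 ± 45.5 CPM in vehicle muscle (SD, n = 4 each). The log2 fold change was 0.10 (SE 0.41, 95% interval -0.73 to 0.93, adjusted p = 0.978), and it was negative without BI01 library 1 (-0.14), BI01 library 2 (-0.07) or vehicle library 10 (-0.04).

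Mdm2 (ENSMUSG00000020184, chromosome 10, 117688875 to 117710758), the gene of p53's ubiquitin ligase, had 49.5, 53.3, 42.0 and 45.2 CPM with BI01 and 48.1, 42.7, 45.8 and 38.1 CPM with vehicle. All 8 values lay close together, the highest in BI01 library 2 and the lowest in vehicle library 10, and the groups overlapped. Its log2 fold change was 0.12 (SE 0.12, 95% interval -0.13 to 0.37, adjusted p = 0.87), an interval well inside a 2-fold change. Trp53 itself (ENSMUSG00000059552, chromosome 11, 69580359 to 69591873) had 32.5, 37.4, 31.6 and 37.9 CPM with BI01 and 48.0, 27.6, 27.0 and 25.7 CPM with vehicle. Vehicle library 7 was the highest of all and the other vehicle libraries were below every BI01 library, with a log2 fold change of 0.12 (-0.23 to 0.47, adjusted p = 0.915). Cdkn2a (ENSMUSG00000044303, chromosome 4, 89274471 to 89294653), the source of the cell cycle inhibitor p16 and of an MDM2-binding protein read in another frame, had 4.61, 3.15, 3.08 and 3.13 CPM with BI01 and 4.71, 1.68, 2.54 and 0.517 CPM with vehicle. BI01 library 1 and vehicle library 7 were the 2 highest and nearly equal, and vehicle library 10 was the lowest. The log2 fold change was 0.55 (-0.37 to 1.47, adjusted p = 0.822), an interval that held a 2-fold difference.

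**Figure D1:**
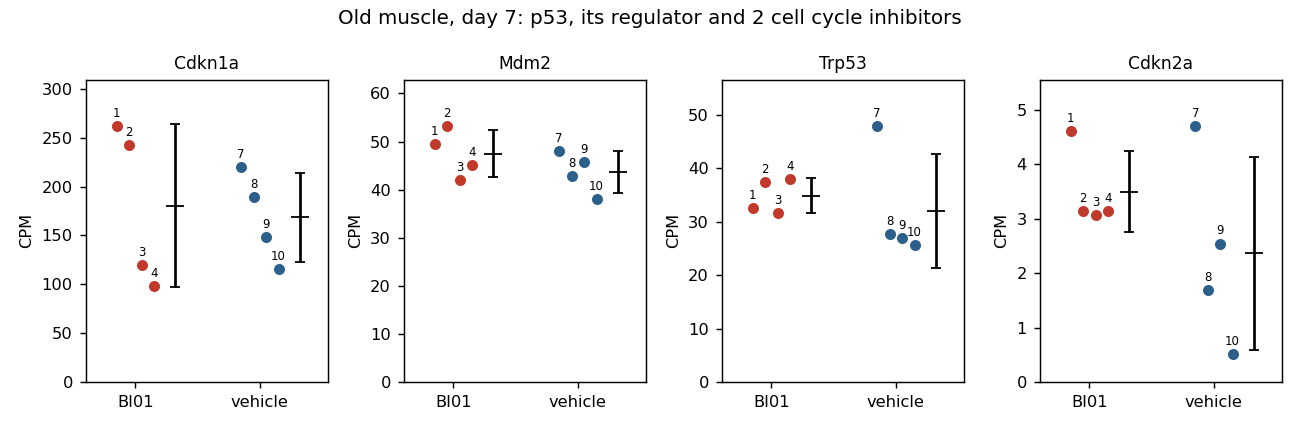
CPM of Cdkn1a, Mdm2, Trp53 and Cdkn2a in each old library at day 7, BI01 left and vehicle right, with the library numbers. Points are libraries and the bar is the mean with its SD (n = 4). The 2 groups overlap in all 4 genes, most tightly in Mdm2, where the 8 libraries lie between 38.1 and 53.3 CPM.

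The levels of 3 of these genes in the other groups give the scale of those values. Cdkn1a averaged 180.4 ± 83.5 CPM in old BI01 and 168 ± 45.5 CPM in old vehicle muscle at day 7, against 96.6 ± 32.2 CPM in young vehicle muscle at day 7. At day 35 it averaged 34.5 ± 14.1 CPM with BI01 and 42.4 ± 6.97 CPM with vehicle in old muscle, and old uninjured muscle had 45.6 ± 23.6 CPM. Mdm2 averaged 47.5 ± 4.92 CPM with BI01 and 43.7 ± 4.32 CPM with vehicle at day 7 in old muscle, 63.8 ± 2.89 CPM with BI01 and 72.1 ± 1.23 CPM with vehicle at day 35, and 86.2 ± 11.4 CPM uninjured. Cdkn2a averaged 3.49 ± 0.745 CPM with BI01 and 2.36 ± 1.77 CPM with vehicle at day 7, and 4.62 ± 0.531 CPM with BI01 and 5.67 ± 2.68 CPM with vehicle at day 35, while old uninjured muscle had 0.572 ± 0.306 CPM. Each is a mean with its SD over 4 libraries. TMM factors were 1.45 to 1.67 with BI01 and 1.51 to 1.87 with vehicle in old muscle at day 7, and 1.06 to 1.42 in young. At day 35 they were 0.8 to 0.91 with BI01 and 0.77 to 0.9 with vehicle in old muscle, and 0.78 to 0.83 in old uninjured muscle. Levels set beside another day, or beside young or uninjured muscle, therefore depend on this scaling. Its part in these differences was not tested.

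Promoters of p53 targets were examined because the title of the series names p53. The windows are RefSeq's (GRCm38.p6), 250 bases before to 50 after each gene's start, and 31 of the 40 tested target genes had one or more, 43 windows in all. The 10-base half-site of p53, called the p53 decamer, was searched for on both strands, with overlaps counted. It stood in 14 of the 43 windows (32.6%), those of 13 genes, and in 2745 of all 32851 windows (8.36%). A pair of decamers at most 13 bases apart stood in 24 windows (0.0731%), of which 1 was of a listed target, Cdkn1a. The 3 windows below are shown because Cdkn1a and Mdm2 are the targets most often read as p53 activity and Ccng1 is another well-known one. Capitals mark the decamers, and a match says only that these letters stand there.
Cdkn1a, chr17:29090729-29091028, plus strand: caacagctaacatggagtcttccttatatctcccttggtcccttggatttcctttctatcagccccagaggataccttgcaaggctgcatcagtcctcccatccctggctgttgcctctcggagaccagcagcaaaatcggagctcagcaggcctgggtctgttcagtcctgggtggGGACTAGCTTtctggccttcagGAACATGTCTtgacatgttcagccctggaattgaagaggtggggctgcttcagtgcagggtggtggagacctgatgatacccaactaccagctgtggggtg
Mdm2, chr10:117710709-117711008, minus strand: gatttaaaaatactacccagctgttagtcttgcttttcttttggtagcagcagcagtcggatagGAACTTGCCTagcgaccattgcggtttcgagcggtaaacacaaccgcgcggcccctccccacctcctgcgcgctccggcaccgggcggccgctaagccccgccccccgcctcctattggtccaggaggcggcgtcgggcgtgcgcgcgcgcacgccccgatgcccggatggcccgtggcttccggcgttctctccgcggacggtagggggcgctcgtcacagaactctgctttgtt
Ccng1, chr11:40755237-40755536, minus strand: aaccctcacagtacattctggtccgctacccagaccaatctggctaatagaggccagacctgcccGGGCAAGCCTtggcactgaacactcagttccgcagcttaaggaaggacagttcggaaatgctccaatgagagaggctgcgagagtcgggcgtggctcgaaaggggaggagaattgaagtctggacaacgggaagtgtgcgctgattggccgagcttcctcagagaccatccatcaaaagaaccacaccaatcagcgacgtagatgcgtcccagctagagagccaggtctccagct
The Cdkn1a window holds 2 decamers with 12 bases between them, at positions 178 and 200 counted from the window's 5′ end. The Mdm2 and Ccng1 windows hold 1 each, at positions 65 and 66. The 13 genes with a decamer had log2 fold changes of -0.61 to 0.25 between BI01 and vehicle muscle, with a median of 0.10. The 18 genes with a window and no decamer had -0.38 to 0.64, with a median of 0.06.

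Of the 40 p53 target genes tested, 0 were called, 19 had a positive and 21 a negative log2 fold change, and the median was -0.02, beside 0.01 over all genes. At an unadjusted p under 0.05 there was 1 gene each way (3.84% and 2.74% among all genes). Phlda3, whose product restrains the kinase AKT, was the one with the higher mean in BI01 muscle. It had 54.8, 59.3, 91.4 and 155 CPM with BI01 and 49.3, 47.0, 101 and 34.1 CPM with vehicle. BI01 library 4 was the highest and vehicle library 9 the next, so the groups overlapped (log2 fold change 0.64, 95% interval 0.03 to 1.25, adjusted p = 0.741). Zmat3, an RNA-binding zinc finger protein, had 22.3, 25.1, 20.2 and 19.8 CPM with BI01 and 28.7, 34.2, 19.0 and 33.2 CPM with vehicle. Vehicle libraries 7, 8 and 10 were above all 4 BI01 libraries and vehicle library 9 was below them (-0.40, -0.76 to -0.03, adjusted p = 0.741). The next 3 by p were Ei24, a protein of the endoplasmic reticulum (0.20), the membrane protein gene Perp (2.03, at most 0.286 CPM in any library) and the reductase gene Dcxr (0.61).

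The interval lay within a 2-fold change for 24 of the 40 targets (60%). Named for their roles after their values were seen, the death genes Bax (0.25, -0.36 to 0.86), Bbc3 (0.23, -0.48 to 0.94) and Pmaip1 (-0.20, -1.24 to 0.84) had intervals on both sides of 0. Cyclin G1, from Ccng1, had 342, 221, 349 and 400.1 CPM with BI01 and 147, 506, 351 and 525 CPM with vehicle (-0.22, -0.78 to 0.34). The vehicle libraries alone spanned more than the BI01 libraries, with library 7 the lowest of all 8 and library 10 the highest. The median of the list stayed between -0.04 and 0.17 with any 1 library left out. Vehicle library 7 was the highest library in 15 of the 40 genes and vehicle library 10 the lowest in 14.

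**Figure D2:**
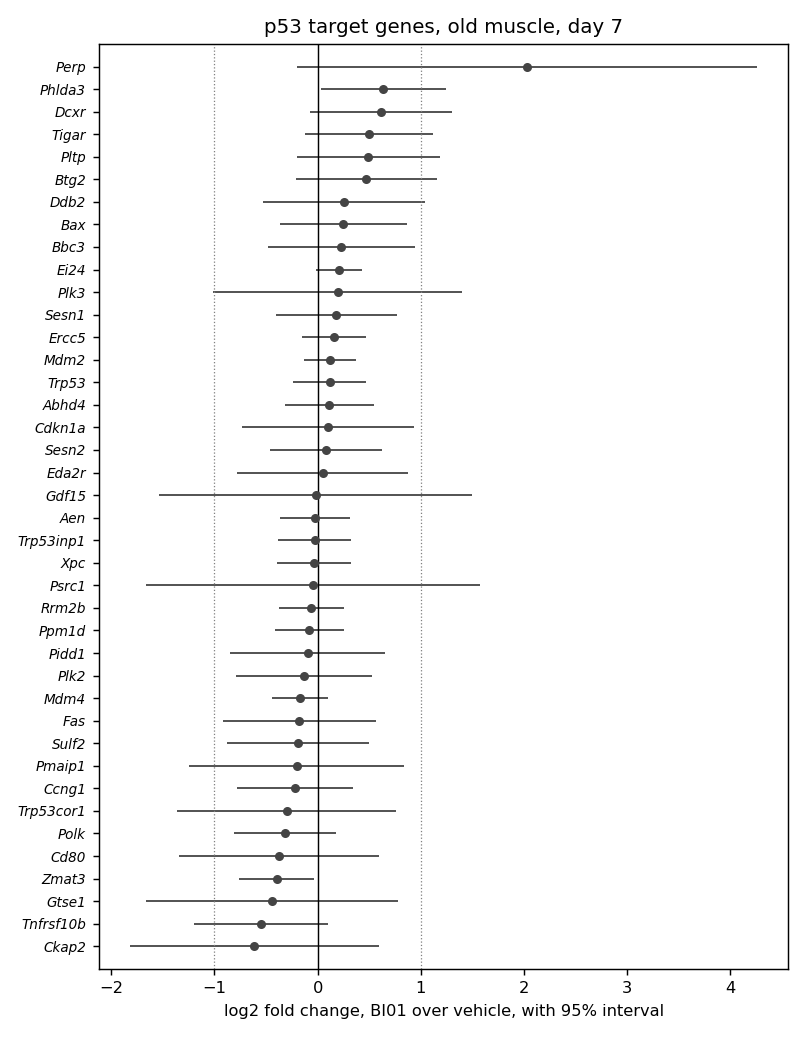
Log2 fold change of BI01 over vehicle in old muscle at day 7 for the 40 p53 target genes tested, sorted by value, with 95% intervals; dotted lines mark a 2-fold change. The intervals of 38 genes hold 0, and those of Phlda3 (0.03 to 1.25) and Zmat3 (-0.76 to -0.03) do not.

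Senescence is marked by cell cycle inhibitors, loss of lamin B1 and a set of secreted cytokines, proteases and growth factor binding proteins. Of 39 such genes, 36 were tested and 0 were called, 15 positive and 21 negative, with a median of -0.05. At an unadjusted p under 0.05, 1 had the higher mean in BI01 muscle and 2 the lower (3.84% and 2.74% among all genes). The gelatinase gene Mmp9 had 5.02, 12.2, 4.29 and 1.97 CPM with BI01 and 59.0, 5.22, 6.40 and 14.9 CPM with vehicle (log2 fold change -1.86, 95% interval -3.56 to -0.16, adjusted p = 0.741). Vehicle library 7 was far above the rest. Lmnb1, the gene of lamin B1, had 22.3, 36.6, 21.96 and 17.8 CPM with BI01 and 60.1, 26.8, 26.4 and 26.1 CPM with vehicle (-0.50, -0.97 to -0.03), with vehicle library 7 again the highest. The stromelysin gene Mmp3 had 50.4, 14.0, 18.0 and 72.3 CPM with BI01 and 4.32, 19.0, 38.1 and 7.34 CPM with vehicle (1.17, 0.03 to 2.31). BI01 libraries 1 and 4 were the 2 highest and vehicle library 7 the lowest. Without vehicle library 7 the median of the list was 0.33. The summed level of the 36 genes was 2800, 2640, 2470 and 2900 CPM with BI01 and 3230, 2570, 2570 and 2450 CPM with vehicle, with vehicle library 7 the highest and the groups overlapping.

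The balance of BCL2 proteins decides whether a cell enters apoptosis, and many senolytics act on it. Of the 30 genes of this family and of cell death tested, 0 were called, 18 were positive and 12 negative, with a median of 0.09 (from -0.02 without vehicle library 10 to 0.25 without vehicle library 7). Bcl2l2, the survival protein BCL-W, had 15.8, 18.6, 19.8 and 20.2 CPM with BI01 and 16.2, 12.6, 17.4 and 15.3 CPM with vehicle (log2 fold change 0.27, 95% interval 0.02 to 0.52, adjusted p = 0.741). It was one of 2 genes at an unadjusted p under 0.05 (3.84% higher among all genes), and BI01 library 1 lay within the vehicle range. The other was the death gene Hrk, with 15 counts over BI01 libraries 2 (0.39 CPM) and 4 (0.04 CPM) and 0 counts in the vehicle libraries. Pooled over the group, that is at least 4.44-fold higher when the vehicle group is set to a floor of 3 counts. This difference was carried by 1 library, BI01 library 2, and 2 BI01 libraries were at 0 as well. Bcl2l1, the survival protein BCL-XL, had 29.9, 32.4, 19.9 and 17.0 CPM with BI01 and 28.2, 17.2, 16.4 and 15.4 CPM with vehicle (0.36, -0.07 to 0.78), and Diablo, which releases caspases from inhibition, had a log2 fold change of 0.48 (-0.03 to 0.98). BI01 libraries 1 and 2 and vehicle library 7 were the highest in Bcl2l1.

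The gene with the smallest p was Cd163 (ENSMUSG00000008845, chromosome 6, 124304656 to 124330527), the receptor by which macrophages take up haemoglobin bound to haptoglobin. It had 57.3, 62.0, 12.7 and 20.0 CPM in BI01 libraries 1 to 4 and 6.35, 12.2, 10.7 and 11.2 CPM in vehicle libraries 7 to 10. All 4 BI01 libraries were above all 4 vehicle libraries, but BI01 library 3 only just so, while libraries 1 and 2 were several times higher. The means were 38.0 ± 25.2 CPM with BI01 and 10.1 ± 2.59 CPM with vehicle (SD, n = 4 each), and young muscle at day 7 had 12.5 ± 4.68 CPM. The log2 fold change was 1.91 (SE 0.38, 95% interval 1.14 to 2.69, unadjusted p = 2.16e-05, adjusted p = 0.37). It was called by DESeq2 (adjusted p = 0.00765), and by edgeR without BI01 library 3 or vehicle library 9, with adjusted p of 0.00765 to 1 over 18 other settings. At day 35, old BI01 muscle had 7.98 ± 2.32 CPM and old vehicle muscle 8.40 ± 1.77 CPM, a log2 fold change of -0.08. The difference between the days was 1.99 (adjusted p = 0.921).

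Retnla, a secreted protein of alternatively activated macrophages, had 4.20, 25.3, 1.04 and 16.1 CPM with BI01 and 0.226, 1.64, 2.76 and 0.658 CPM with vehicle. BI01 libraries 1, 2 and 4 were above every vehicle library and BI01 library 3 was not, with a log2 fold change of 3.15 (SE 0.85, 95% interval 1.41 to 4.90, adjusted p = 0.741). At day 35 it averaged 10.5 ± 5.87 CPM with BI01 and 9.38 ± 4.62 CPM with vehicle. Of the 26 macrophage and monocyte genes tested, Cd163 was the single one at an unadjusted p under 0.05 (3.84% higher among all genes). In all, 20 were positive and 6 negative, with a median of 0.12 that ranged from 0.03 without vehicle library 10 to 0.56 without vehicle library 7, and was -0.10 without vehicle libraries 8 and 10. Lyve1, a receptor for hyaluronan on resident macrophages and lymph vessels, had 9.70, 7.38, 0.751 and 3.82 CPM with BI01 and 4.09, 0.913, 1.58 and 1.46 CPM with vehicle (1.42, -0.23 to 3.06). BI01 libraries 1 and 2, which were the high ones in Cd163, were also the high ones in Lyve1, and the groups overlapped. The mannose receptor gene Mrc1 (0.10, -0.64 to 0.85), a mark of alternative activation, and the F4/80 gene Adgre1 (-0.04, -0.95 to 0.87), a mark of macrophages in general, named after their values were seen, had intervals on both sides of 0. The summed level of the list was 4680, 3790, 2840 and 2260 CPM with BI01 and 4600, 2710, 2800 and 1560 CPM with vehicle. The highest were BI01 library 1 and vehicle library 7, and the lowest was vehicle library 10.

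**Figure D3:**
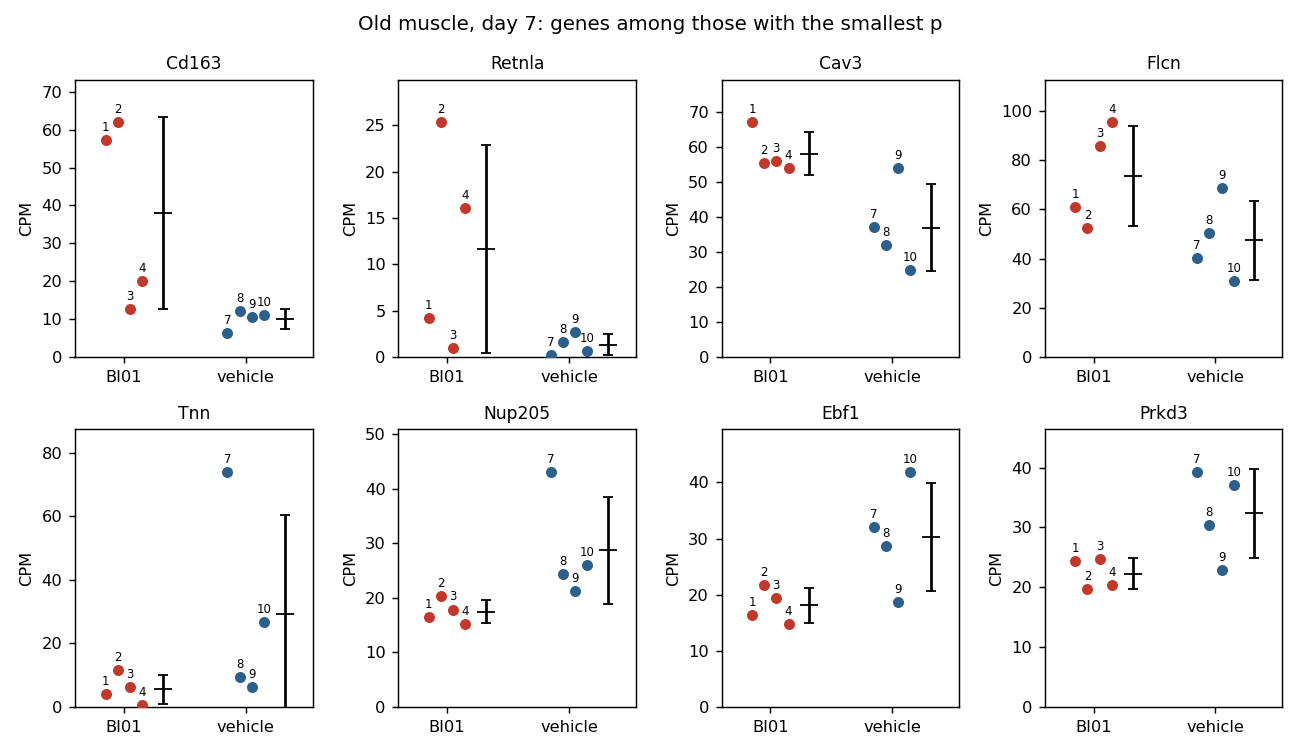
CPM in each old library at day 7, BI01 left and vehicle right, for 4 genes with the higher mean in BI01 muscle (top) and 4 with the lower mean (bottom). They are among the 10 genes named by smallest p in each direction, at 5 CPM or more and with predicted genes left out. The bar is the mean with its SD (n = 4), and a bar that would pass below 0 stops there. Cd163 is high in BI01 libraries 1 and 2, and Tnn is high in vehicle libraries 7 and 10.

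Since no gene was called, the 10 genes with the smallest p in each direction at a mean of 5 CPM or more were taken, predicted genes left out. All of them other than Cd163 had an adjusted p of 0.741. They were picked by p, so an absence of overlap between their groups is no separate support. Cav3, the caveolin of muscle membranes, had 67.2, 55.6, 55.9 and 53.9 CPM with BI01 and 37.2, 32.1, 53.9 and 24.9 CPM with vehicle. The groups did not overlap, though BI01 library 4 and vehicle library 9 nearly met, and the log2 fold change was 0.65 (SE 0.18, 95% interval 0.28 to 1.02). Flcn, folliculin, a regulator of nutrient signalling, had 60.8, 52.6, 85.5 and 95.4 CPM with BI01 and 40.2, 50.2, 68.5 and 30.9 CPM with vehicle (0.63, 0.26 to 1.00). BI01 libraries 3 and 4 were the highest and vehicle library 9 the next, so the groups overlapped. Vehicle library 9 was also the highest vehicle library in Oxa1l, which inserts proteins into the inner mitochondrial membrane (0.50), in Dele1, a mitochondrial stress relay (0.65), in Neurl2, a muscle ubiquitin ligase partner (0.77), and in the chaperone gene Clu (0.94). Rnf220, a ubiquitin ligase, had 40.3, 41.9, 38.0 and 37.0 CPM with BI01 and 29.6, 29.96, 35.3 and 28.9 CPM with vehicle, without overlap (0.35, 0.14 to 0.55). The tenth, Rpl17-ps10, is a pseudogene that can share reads with the ribosomal gene it was copied from, so its log2 fold change of 0.98 is uncertain as to its source.

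Without vehicle library 9, edgeR called 54 genes, 50 higher and 4 lower in BI01 muscle. Cav3 (log2 fold change 0.89), Flcn (0.86), Oxa1l (0.64), Dele1 (0.97), Neurl2 (1.00) and Clu (1.24) were among the 50, with Tcap of the Z-disc (1.65), the chaperone gene Cryab (1.09) and the respiratory genes Uqcrfs1 (1.29) and Cox6a2 (1.66). The genes called higher were short, with a median length of 1583.5 bases, and the 4 called lower were long, with 10386.5, against 3827 over all genes tested. With vehicle library 9 left out, 2 of the 3 remaining vehicle libraries were those in which long genes were high relative to short ones, and the part of this in the 54 calls was not tested. In no other leave-out of 1 library was there more than 1 call.

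Nup155, a ring subunit of the nuclear pore, had the smallest p of the 10 with the lower mean in BI01 muscle. It had 13.8, 14.6, 15.5 and 14.9 CPM with BI01 and 25.7, 20.5, 16.0 and 24.4 CPM with vehicle (log2 fold change -0.56, 95% interval -0.85 to -0.27). Nup205, another subunit of the pore, had 16.5, 20.3, 17.9 and 15.3 CPM with BI01 and 43.1, 24.4, 21.3 and 26.1 CPM with vehicle (-0.72, -1.10 to -0.33). Neither overlapped between groups, and the vehicle libraries spread more than the BI01 libraries in both. Ipo8, an import receptor, had a log2 fold change of -0.44 and overlapped. Dis3, the nuclease of the RNA exosome (-0.49), and the zinc finger genes Zfp81 (-0.78) and Zfp39 (-0.93) did not overlap. Prkd3, a protein kinase D (-0.54), Ebf1, a transcription factor of B cells and adipose precursors (-0.74), and Haus3, of the complex that branches spindle microtubules (-0.91), overlapped by 1 or more libraries. Tnn, a tenascin of the matrix, had 3.93, 11.6, 6.12 and 0.723 CPM with BI01 and 74.0, 9.32, 6.40 and 26.8 CPM with vehicle (-2.37, -3.73 to -1.01). Its difference came from vehicle libraries 7 and 10, and without these 2 the log2 fold change was -0.49. All 10 genes with the lower mean were longer than the median of all genes tested (3827 bases). They ran from 3871 bases in Haus3 to 15793 in Ipo8, with 11951 in Nup155 and 9306 in Nup205. Long genes were high relative to short ones in vehicle libraries 8 and 10, and the part of this in these 10 genes was not tested.

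Respiratory chain genes, which encode the mitochondrial complexes that make ATP, had a positive log2 fold change in 37 of 38 genes, with a median of 0.48 beside 0.01 over all genes. None was called, and 11 were at an unadjusted p under 0.05, each with the higher mean in BI01 muscle (3.84% among all genes). Ndufb8 of complex I had 47.4, 48.3, 76.6 and 89.9 CPM with BI01 and 29.2, 37.5, 71.3 and 32.1 CPM with vehicle (log2 fold change 0.62, SE 0.24, 95% interval 0.12 to 1.12, adjusted p = 0.741). Uqcrfs1, the iron-sulphur protein of complex III, had 127, 116, 257 and 336 CPM with BI01 and 79.7, 112, 245 and 64.8 CPM with vehicle (0.74, 0.08 to 1.40). In both, BI01 libraries 3 and 4 and vehicle library 9 were high and the other 5 libraries low, so the groups overlapped. This pattern held across the list: these 3 libraries were the 3 highest in 37 of 38 genes, BI01 library 4 was the highest in 37 and vehicle library 7 the lowest in 24. Uqcrq of complex III had a log2 fold change of 0.69 (0.08 to 1.30).

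The summed level of the 38 respiratory genes was 5710, 4630, 8360 and 10800 CPM with BI01 and 3330, 5440, 8540 and 5080 CPM with vehicle, against 6780 to 12300 CPM in young muscle at day 7. Every old library but BI01 libraries 3 and 4 and vehicle library 9 was below the young range. TMM factors were 1.45 to 1.67 with BI01, 1.51 to 1.87 with vehicle and 1.06 to 1.42 in young muscle. The place of old libraries against the young range thus depends on the scaling, whose part was not tested. The median of the list ranged from 0.25 without BI01 library 4 to 0.85 without vehicle library 9. It was 0.31 without vehicle libraries 8 and 10, 0.13 without vehicle libraries 7 and 10, and 0.31 with a correction for gene length. With the 8 libraries fitted alone, or without vehicle library 10, 0 of the 38 were at an unadjusted p under 0.05. The genes of this list are short, with a median length of 2036.5 bases against 3827 over all genes. The share of counts from the mitochondrial genome was 4.90% to 5.70% with BI01 and 3.06% to 5.34% with vehicle (exact two-sided permutation test, p = 0.143, adjusted over 7 library measures 0.45; the smallest p this design allows is 0.0286).

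**Figure D4:**
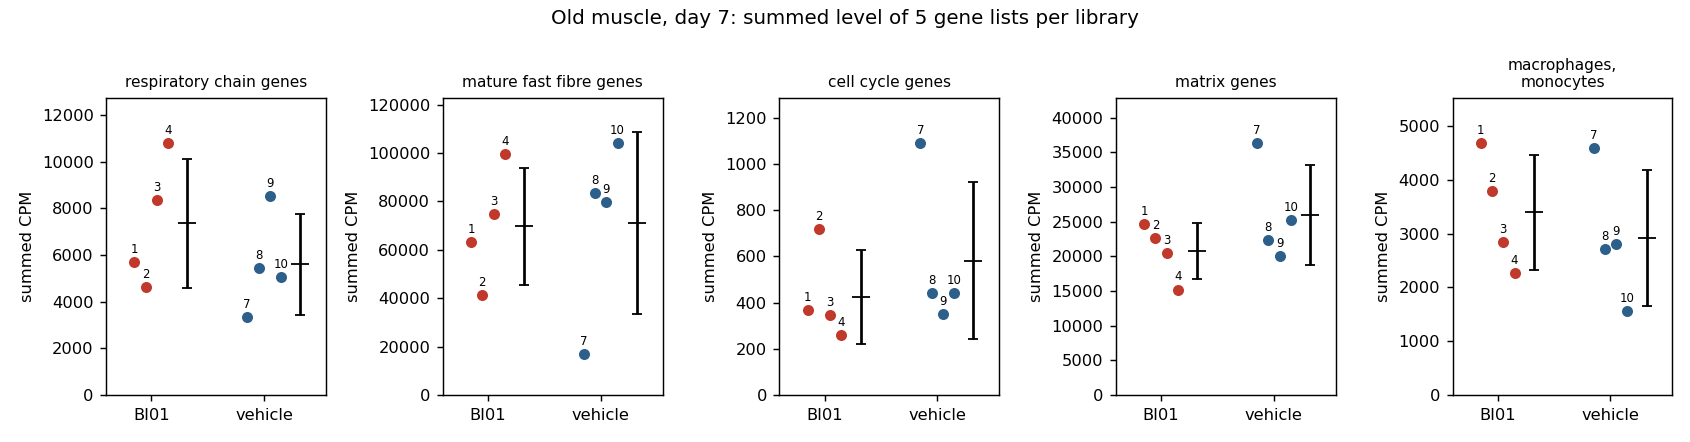
Summed CPM of 5 gene lists in each old library at day 7, BI01 left and vehicle right, with library numbers; the bar is the mean with its SD (n = 4). Vehicle library 7 is the highest in cell cycle (1090 CPM) and matrix genes (36300 CPM) and the lowest in respiratory (3330 CPM) and mature fast fibre genes (16800 CPM).

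Fibre genes were read in 4 groups that follow the making of a fibre. Of 23 satellite cell and myogenic regulator genes tested, 0 were called, with 15 positive and 8 negative and a median of 0.02 (from -0.06 without BI01 library 1 to 0.17 without vehicle library 7). Myf6, the last of the myogenic factors to come on, had 147, 54.8, 119 and 129 CPM with BI01 and 30.3, 74.4, 113 and 49.6 CPM with vehicle (log2 fold change 0.76, 95% interval 0.10 to 1.41, adjusted p = 0.741). Chrd, an antagonist of BMP ligands (0.66), was the other at an unadjusted p under 0.05 (3.84% higher among all genes). Both overlapped between groups, with vehicle library 9 the highest vehicle library in each. Pax7, which marks satellite cells, and Myog, which marks committed myocytes, were named after their values were seen. Pax7 had a log2 fold change of 0.03 (-0.58 to 0.64) and Myog one of 0.01 (-1.12 to 1.14).

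Regenerating fibre proteins, such as embryonic and perinatal myosins, had 0 of 20 called, 15 positive and 5 negative, and a median of 0.16 (from -0.01 without BI01 library 1 to 0.27 without BI01 library 4). Besides Cav3, the smallest p were those of Gamt, of creatine synthesis (0.56), and Sln, sarcolipin, the brake on the calcium pump (1.02). Perinatal Myh8 had 4323, 2076, 1813 and 1564 CPM with BI01 and 665, 2267, 1770 and 2811 CPM with vehicle (0.38, -0.76 to 1.52). BI01 library 1 was the highest and vehicle library 7 the lowest. The 22 genes of mature fast fibres had 0 called, 15 positive and 7 negative and a median of 0.17, which was -0.13 without vehicle library 7. Fast myosin Myh2 had 228, 525, 113 and 384 CPM with BI01 and 23.6, 58.8, 221 and 101 CPM with vehicle (1.63, -0.27 to 3.52), and vehicle library 9 was above BI01 library 3. Vehicle library 7 was the lowest library in 21 of the 22 genes. Of 14 slow fibre genes, 0 were called, 12 were positive and 2 negative, with a median of 0.32 (from 0.18 without vehicle library 10 to 0.46 without vehicle library 9).

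Atrophy and autophagy genes, through which fibres break down their proteins, had 0 of 18 called, 13 positive and 5 negative and a median of 0.17 (from 0.10 without vehicle library 8 to 0.23 without vehicle library 9). Foxo4, a FOXO transcription factor, had 49.97, 40.3, 57.0 and 63.2 CPM with BI01 and 27.2, 44.9, 48.1 and 35.6 CPM with vehicle (log2 fold change 0.43, 95% interval 0.12 to 0.74, adjusted p = 0.741). BI01 libraries 1, 3 and 4 were above every vehicle library and BI01 library 2 was not. Map1lc3b, the autophagosome protein LC3B (0.37), was the other at an unadjusted p under 0.05, and both had the higher mean in BI01 muscle (3.84% among all genes).

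Cell cycle genes had the lower mean in BI01 muscle in 31 of 32 genes, with a median of -0.44, and 0 were called or at an unadjusted p under 0.05. The proliferation marker Mki67, named after its values were seen, had 41.7, 94.7, 34.4 and 21.2 CPM with BI01 and 114, 65.3, 36.6 and 86.7 CPM with vehicle (log2 fold change -0.66, 95% interval -1.70 to 0.39). Ccnb1, cyclin B1 of mitotic entry, had 7.64, 13.8, 5.12 and 3.50 CPM with BI01 and 28.1, 10.4, 5.96 and 10.02 CPM with vehicle (-0.85, -1.89 to 0.18). Vehicle library 7 was the highest library in all 32 genes, BI01 library 2 was next in 30, and BI01 library 4 was the lowest in 22. The spindle genes Tpx2 (-0.70) and Aurka (-0.64) had the smallest p. The summed level was 369, 719, 344 and 261 CPM with BI01 and 1090, 443, 352 and 443 CPM with vehicle. Without vehicle library 7 the median of the list was 0.09, so its sign rested on 1 library, and without BI01 library 2 it was -0.83.

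Matrix genes, the collagens and other proteins laid down by fibroblasts, were negative in 31 of 35 genes, with a median of -0.33 and 0 called. At an unadjusted p under 0.05 were 2 genes, both with the lower mean in BI01 muscle (2.74% among all genes). Loxl2, which cross-links collagen, had 42.6, 73.2, 38.4 and 23.8 CPM with BI01 and 186, 43.4, 41.5 and 80.2 CPM with vehicle (log2 fold change -0.98, 95% interval -1.85 to -0.11, adjusted p = 0.741). Vcan, the proteoglycan versican, had 42.0, 54.8, 37.0 and 34.1 CPM with BI01 and 115, 62.8, 49.7 and 84.3 CPM with vehicle (-0.89, -1.75 to -0.03). In both, vehicle libraries 7 and 10 were the highest of all 8, and vehicle libraries 8 and 9 lay among or near the BI01 libraries. Thbs1, thrombospondin 1 (-1.07), and Fbn2, fibrillin 2 (-0.86), came next by p. Vehicle library 7 was the highest library in 24 of the 35 genes and BI01 library 4 the lowest in 25. The median was -0.11 without vehicle library 7 and -0.03 without vehicle libraries 7 and 10.

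Genes of iron handling and oxidative stress had 0 of 18 called, 11 positive and 7 negative, with a median of 0.07 (from -0.02 without BI01 library 1 to 0.31 without vehicle library 7). Gpx3, the secreted glutathione peroxidase, had 607, 213, 209 and 359.6 CPM with BI01 and 211, 168, 295 and 119.7 CPM with vehicle (log2 fold change 0.81, 95% interval 0.19 to 1.42, adjusted p = 0.741). Gpx4, which reduces lipid peroxides (0.42), was the other at an unadjusted p under 0.05 (3.84% higher among all genes). Hmox1, the oxygenase that breaks down haem, had 37.6, 61.0, 29.5 and 21.9 CPM with BI01 and 225, 36.8, 40.7 and 25.8 CPM with vehicle (-1.13, -2.41 to 0.15). A single library, vehicle 7, carried that difference, and without it the log2 fold change was 0.13.

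The same comparison at day 35 gave 0 calls in 17121 genes (0%, with 0% higher and 0% lower), and 530 genes (3.1%) at an unadjusted p under 0.05. There DESeq2 called 12 genes, 2 higher and 10 lower with BI01, and limma voom 0. A direct test of the difference between the day 7 and the day 35 fold change gave 0 calls (0%, with 0% each way) and 825 genes (4.82%) at an unadjusted p under 0.05. DESeq2 called 2 genes for that difference, Aif1l (2.83) and Lrch1 (-1.03), both at an adjusted p of 0.0388, and limma voom called 0. List medians at day 7 and day 35 stood at 0.48 and -0.03 for the respiratory chain, -0.44 and 0.08 for the cell cycle, -0.33 and 0.01 for matrix and -0.02 and 0.01 for p53 targets. No test of these differences between medians was made.

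The vehicle libraries of day 7 also enter the comparison of old with young vehicle muscle at that day, which gave 416 called genes (2.43%), 43 higher (0.251%) and 373 lower (2.18%) in old muscle. That count rests on single vehicle libraries, with 35 calls without library 7 and 1012 without library 9, and 0 when these 2 groups were fitted alone. With library size alone in place of TMM, the calls were 610 higher and 102 lower, and the median of all genes was 0.36 in place of 0.04. Because it shares those libraries with the BI01 comparison, values are set side by side only. The median log2 fold change of the respiratory list was 0.48 for BI01 against vehicle and -0.66 for old vehicle against young vehicle, that of mature fast fibre genes 0.17 and -1.03, and that of p53 targets -0.02 and 0.22.

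**Figure D5:**
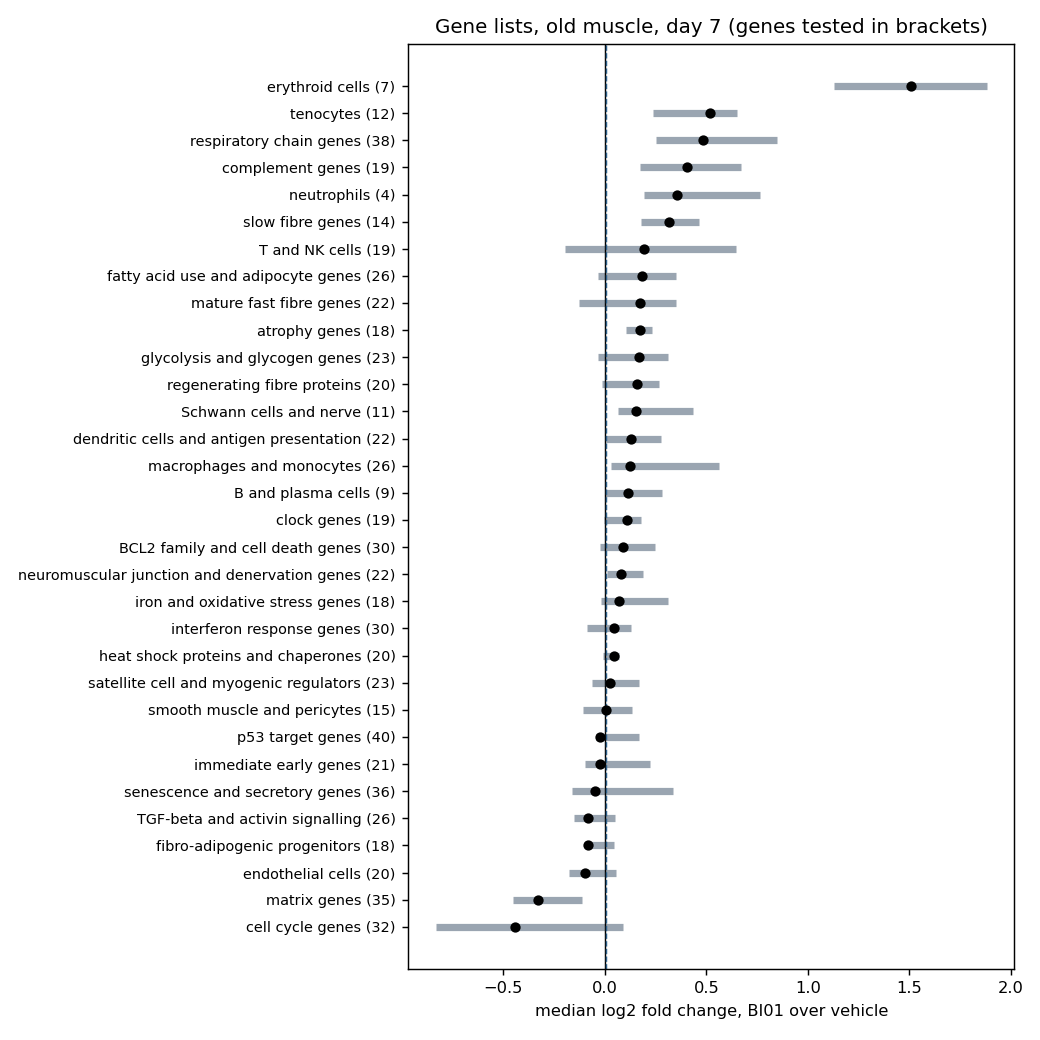
Median log2 fold change of BI01 over vehicle in old muscle at day 7 for 32 gene lists (genes tested in brackets), sorted by value; grey bars span the medians with each of the 8 libraries left out in turn, and the dashed line is the median of all genes (0.01). Cell cycle genes lie lowest at -0.44 with a bar that crosses 0, and the respiratory chain genes (0.48) have a bar that stays above it. The bars of other lists stay above 0 too, among them erythroid (1.51), tenocyte (0.52) and complement genes (0.40). That of matrix genes (-0.33) stays below 0.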

How the data were processed

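RNA was extracted with a Qiagen miRNeasy kit and sequenced as mRNA by Novogene, per the labels' protocols, and the submitters' processing notes name HISAT2 and mm10. Aligner version, counting tool, annotation and strandedness were not given in the sources used here, so genes that overlap or have near-identical copies are uncertain. The deposited table holds whole-number counts per gene, made by the authors, in 32 columns, all used. A column's name shows its group but its number is not the replicate number of the labels.

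Counts were scaled by TMM in edgeR 4.0.16 (R 4.3.3), filtered with filterByExpr (17121 genes) and fitted by a robust quasi-likelihood model to all 32 libraries with 1 mean per group. Contrasts were tested two-sided, the Benjamini-Hochberg adjustment ran over all genes tested, and calls needed an adjusted p under 0.05. Where no tool is named, an adjusted p is from edgeR. The SE comes from the fold change and its F statistic. The code of the fit was tried on simulated counts with the same spread set for every gene. These held no outlying library and no trend with gene length, so the trial does not cover such features of the real libraries. Alternatives were RLE or library-size scaling, DESeq2 1.42.0, limma 3.58.1 (voom), other filters (none, or 1 CPM in 4 libraries), the compared groups alone, and each library left out. Leaving out vehicle libraries 8 and 10 or 7 and 10, and a correction for gene length, were added after the data were seen. With no gene called, the 10 genes with the smallest p in each direction were named (predicted genes left out, and 5 CPM or more as the mean of the higher group), with Cdkn1a, Cdkn2a, Mdm2, Trp53 and up to 4 genes with the smallest p in each described list. Some genes that this rule picks are not reported. The comparison, the 32 lists and this rule were chosen with earlier results of these data known. Lists are described by counts and medians, and no set test was made. Library measures were compared by exact permutation.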

Additional observations from a re-analysis of the deposited data

Results flagged for a closer look

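In 48 sets of 4 libraries checked (24 named genes in BI01 and in vehicle muscle at day 7), 4 held a library whose gap to the nearest of the others passed Dixon's 95% critical share of the set's range. Chance gives about 1 such set in 20. Cdkn2a was at 4.61 CPM in BI01 library 1, against 3.08 to 3.15 CPM in BI01 libraries 2 to 4. Trp53 was at 48 CPM in vehicle library 7, against 25.7 to 27.6 CPM in the other vehicle libraries. Cav3 was at 67.2 CPM in BI01 library 1, against 53.9 to 55.9 CPM in the other BI01 libraries. Rnf220 was at 35.3 CPM in vehicle library 9, against 28.9 to 30 CPM in the other vehicle libraries. What sets these libraries apart was not tested.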

How the results depend on the processing

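No paired analysis was possible because the table columns carry numbers (1 to 4 and 7 to 10 at day 7) that are not the replicate numbers of the labels, so the fit with a replicate block was not run. The count of genes called for BI01 against vehicle at day 7 was 0 to 54 with 1 library left out (54 without vehicle library 9, 1 without BI01 library 3) and 1 by DESeq2, and 0 under the other alternatives. For the difference between days the count was 2 by DESeq2 and for day 35 it was 12. For old against young vehicle muscle, 416 calls became 712 with library size alone, 792 by DESeq2, 1251 by limma voom, 171 without a filter, 0 with these groups alone, 35 to 1012 with 1 library left out, 1035 without vehicle libraries 8 and 10 and 2 without 7 and 10. The cause of these moves was not tested.

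Of 1292 values of 72 named genes under 18 alternatives, 1264 kept sign and side of the threshold, 14 became calls and 14, of 11 genes, changed sign. With 1 library left out, Cdkn1a ranged from -0.138 to 0.304 (negative without BI01 library 1, BI01 library 2 or vehicle library 10), Myf5 from -0.037 (without BI01 library 1) to 0.466 and Hmox1 from -1.471 to 0.125 (without vehicle library 7). Without vehicle libraries 8 and 10, Cdkn1a (-0.033), Cdkn2a (-0.064), Trp53 (-0.11), Hey1 (-0.026) and Nedd4 (0.109) changed sign. Without vehicle libraries 7 and 10, Mmp9 (0.018), Loxl2 (0.068), Thbs1 (0.002) and Tpx2 (0.079) did so. Their causes were not tested. Genes under 1 CPM had a median 95% interval of ±1.73, and 0.708% of those intervals lay within 2-fold. At this depth, and with the spread taken over all 32 libraries, most 2-fold changes in such transcripts were therefore not detectable.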

Other observations

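Genes of red blood cells had the highest median of the 32 lists. All 7 of the erythroid genes tested were positive, with a median log2 fold change of 1.51 (the same with Slc4a1, at 0 counts in vehicle muscle, put at its bound). Of these, 0 were called and 1 was at an unadjusted p under 0.05 (3.84% higher among all genes). The haemoglobin gene Hbb-bs had 54.5, 13.7, 67.6 and 20.1 CPM with BI01 and 19.7, 13.8, 19.9 and 1.88 CPM with vehicle (log2 fold change 1.49, 95% interval -0.04 to 3.02, adjusted p = 0.741). Hba-a1, named after its values were seen, had 48.9, 14.6, 53.3 and 17.2 CPM with BI01 and 17.1, 12.1, 14.1 and 15.5 CPM with vehicle (1.19, -0.36 to 2.74). In both, BI01 libraries 1 and 3 were above all other libraries and BI01 libraries 2 and 4 lay within or beside the vehicle range. With 1 library left out the median ran from 1.13 without BI01 library 3 to 1.88 without vehicle library 9, and at day 35 it was -1.21. The haemoglobin genes are near-identical pairs, so reads can be split between copies. The part of blood left in the sample was not tested.

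Complement genes were positive in 15 of 19, with a median of 0.40 (from 0.17 without BI01 library 4 to 0.67 without vehicle library 9) and 0 called. T and NK cell genes had a median of 0.19 over 19 genes, 15 of them positive. Its sign rested on single libraries, with medians from -0.20 without BI01 library 4 to 0.65 without vehicle library 9, and none of their intervals lay within a 2-fold change. Their summed level was 14.6, 27.9, 50.9 and 69.1 CPM with BI01 and 20.5, 36.4, 64.0 and 22.8 CPM with vehicle, highest in BI01 libraries 3 and 4 and vehicle library 9. Interferon response genes had a median of 0.05 over 30 genes, with 17 positive and 13 negative (from -0.09 without vehicle library 7 to 0.13 without vehicle library 9), and tenocyte genes one of 0.52 over 12, 10 of them positive (from 0.24 without BI01 library 2 to 0.65 without vehicle library 9).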
